A study of Mus musculus with 8 samples.

Results

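The comparison of Dnmt1 KO with WT at 6 months sets 2 KO libraries against 2 WT libraries, 4 of the 8 libraries of the series. KO mice carried PV-Cre, the tdTomato reporter and Dnmt1 loxP2 alleles, and WT mice carried PV-Cre, tdTomato and wild-type Dnmt1. All were 6 months old and on a C57BL/6 background. In both groups cortical cells were dissociated with enzymes, sorted by fluorescence, and total RNA was sequenced. PV-Cre drives Cre in cells that express parvalbumin, and recombination removes exons 4 and 5 of Dnmt1, so reads from its other exons still count to the gene. The floxed allele comes from a B6;129Sv stock, so alleles of the donor strain that lie near it cannot be told apart from the genotype. Cells were pooled from 6 KO and 6 WT mice, a number that the labels do not tie to each age, and the 2 libraries of a group are technical replicates, so every p-value below measures the spread between libraries of a group, which may be technical, and not between animals.

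The cells were labelled as parvalbumin interneurons, the fast-spiking inhibitory cells of the cortex. Of the defining markers of that class, Pvalb and Lhx6 were close to absent. Pvalb, which encodes parvalbumin itself, had 0 and 0 reads in KO, against 0 and 1 reads in WT. Lhx6, the transcription factor of interneurons from the medial ganglionic eminence, had 3 and 1 reads in KO, against 0 and 1 in WT. The 16 oligodendrocyte markers, by contrast, summed to 34720 and 33720 CPM in KO, against 15780 and 15830 CPM in WT. CPM is the read count scaled for library size. Other genes of the parvalbumin list were read, and its 13 tested of 15 members summed to 528.5 and 520.9 CPM in KO, against 521.3 and 488.9 CPM in WT. The material is therefore called sorted cortical cells below, and all values are those of an RNA mixture. In such a mixture fewer cells of a type and less RNA per cell cannot be told apart.

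Dnmt1 encodes the methyltransferase that copies CpG methylation onto newly made DNA strands, and it stays expressed in neurons and glia that no longer divide. DNA methylation at promoters rich in CpG is generally linked to silencing, while methyl-CpG binding proteins read the mark and the TET enzymes oxidise it. Oligodendrocytes wrap axons in myelin, astrocytes take up glutamate and support neurons, and oligodendrocyte precursors divide and mature in the adult cortex.

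The KO libraries at 6 months held 8973571 and 8481613 reads counted to genes, against 6008175 and 6024905 in the WT libraries. Log2 CPM correlated across genes with r = 0.991 within the KO pair and 0.982 within the WT pair. KO and WT libraries correlated at 0.952 to 0.958, and the WT libraries stood apart from the 3 other groups of the series, with r of 0.91 to 0.958 against 0.964 to 0.979 among those 3. Libraries of a group differed by a chi-square of 2.62 to 5.16 per gene, more than the sampling noise, so none was counted as a repeat deposit.

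Of 18205 genes tested with edgeR's quasi-likelihood test and Benjamini-Hochberg adjustment, 3491 were higher in KO (19.2%) and 3576 lower (19.6%), together 38.8%. The median log2 fold change over all tested genes was -0.005, and 2899 of the called genes differed by less than 1.5-fold. A test against a 2-fold threshold called 162 genes higher (0.89%) and 268 lower (1.47%), together 2.36%. These last counts were 50 and 103 with DESeq2, 97 and 151 without KO replicate 1, and 99 and 195 without WT replicate 2. Calls depended on the level of a gene. In the fifth of genes with the lowest CPM, 7.85% were higher and 5.85% lower, and in the fifth with the highest CPM, 38% were higher and 29.7% lower. A list of abundant genes is read against the second pair of shares, and other lists against the 19.2% and 19.6% of all genes.

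**Figure D1:**
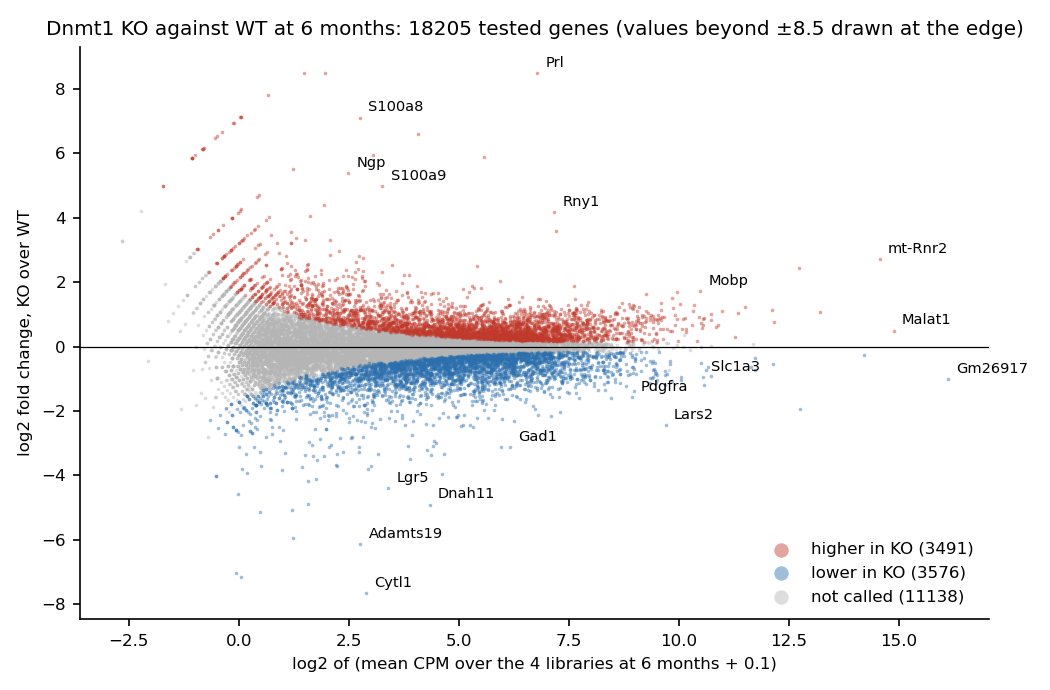
Log2 fold change of KO over WT at 6 months (y axis) against the log2 mean CPM of the 4 libraries (x axis) for the 18205 tested genes, red where higher in KO, blue where lower, grey where not called. The 3491 higher and 3576 lower genes spread about a median near 0, and fitted values of genes with 0 to 3 reads in a group, such as Prl, depend on the prior count; 3 points beyond 8.5 are drawn at the edge.

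The targeted gene was examined first. Dnmt1 was measured at 77.2 and 75.2 CPM in KO, against 97.9 and 104 CPM in WT, and both KO libraries lay below both WT libraries. It was 1.32-fold lower in KO (log2 fold change -0.40, SE 0.0736, adjusted p = 0.0001). Among 23 tested genes of the methylation machinery, 3 were higher and 3 lower (13% each), below the shares of all genes. The lower count was 1 without KO replicate 1, without KO replicate 2, without WT replicate 1 and without WT replicate 1 of the 18-month group. Tet1, a dioxygenase that starts demethylation, rose to 82.3 and 82.4 CPM in KO, against 69.0 and 58.8 CPM in WT (adjusted p = 0.00172, and 0.0542 without WT replicate 2). The methyltransferases Dnmt3a (log2 fold change -0.08, adjusted p = 0.319) and Dnmt3b (-0.32, 0.358), the DNMT1 partner Uhrf1 (-0.82, 0.09), and Tet2 (-0.05, 0.553) did not pass. Tet3 was just outside the threshold (0.15, adjusted p = 0.0559) and passed, higher in KO, under 8 of 16 alternatives. The 95% interval of the log2 fold change was -0.20 to 0.04 for Dnmt3a and -0.18 to 0.08 for Tet2, and the wider -1.60 to -0.04 for Uhrf1, which was at 2.29 and 1.67 CPM in KO, against 3.79 and 3.25 CPM in WT.

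Because DNMT1 acts on CpG, the CpG content of promoters was set beside the calls. The 250 bases before the RefSeq start on GRCm38.p6 are shown for 4 genes that the comparison turns on: Prl and Cytl1, at the top and bottom of the fold changes in the sections that follow, Mobp, a myelin gene, and Gad1, the GABA-synthesising enzyme. Capitals mark each CG.
Prl: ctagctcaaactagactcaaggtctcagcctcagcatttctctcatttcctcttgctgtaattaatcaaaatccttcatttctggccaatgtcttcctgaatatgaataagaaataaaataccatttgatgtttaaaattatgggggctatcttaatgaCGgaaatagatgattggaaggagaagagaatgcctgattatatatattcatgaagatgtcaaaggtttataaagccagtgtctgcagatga
Mobp: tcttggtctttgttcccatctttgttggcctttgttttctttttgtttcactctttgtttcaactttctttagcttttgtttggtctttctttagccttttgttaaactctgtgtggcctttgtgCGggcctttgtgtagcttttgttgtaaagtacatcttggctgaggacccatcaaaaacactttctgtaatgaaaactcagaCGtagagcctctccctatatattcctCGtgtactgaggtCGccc
Cytl1: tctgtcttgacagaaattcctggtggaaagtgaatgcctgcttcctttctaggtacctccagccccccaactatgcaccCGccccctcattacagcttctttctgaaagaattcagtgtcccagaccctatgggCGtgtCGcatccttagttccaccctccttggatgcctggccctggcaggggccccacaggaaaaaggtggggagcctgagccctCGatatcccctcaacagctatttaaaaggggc
Gad1: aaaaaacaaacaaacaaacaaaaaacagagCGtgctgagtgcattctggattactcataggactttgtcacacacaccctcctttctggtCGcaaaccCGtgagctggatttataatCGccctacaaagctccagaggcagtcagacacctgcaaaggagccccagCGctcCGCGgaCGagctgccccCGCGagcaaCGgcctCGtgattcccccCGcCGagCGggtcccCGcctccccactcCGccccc
All 4 lie on the plus strand, Prl at chr13:27057320-27057569, Mobp at chr9:120149492-120149741, Cytl1 at chr5:37735269-37735518 and Gad1 at chr2:70561879-70562128. CG, a motif that reads the same on both strands, occurred 1 time before Prl, 4 times before Mobp, 4 times before Cytl1 and 17 times before Gad1. Of all 22862 promoters of symbols with 1 entry, 91.1% held at least 1, 60.6% at least 4 and 23.2% at least 17.

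Of 13756 protein-coding genes tested, 8525 (62%) had exactly 1 promoter in the table, a share under 80%, so the check is void as a statement on all genes and is given for these alone. The median number of CG in the window was 18 for 1684 genes higher in KO, 16 for 1930 lower and 16 for 4911 not called. The 49 genes past the 2-fold threshold upward had a median of 4, and 61.2% of them held at most 4, against 10.8% of the 8525. The 159 past it downward had a median of 14, with 15.7% at most 4. CG counts are a property of the sequence, and no methylation was measured here.

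Genes of myelinating oligodendrocytes rose in KO. All 16 tested markers were higher, with a median log2 fold change of 1.10, and 5 passed the 2-fold threshold. Mobp, a basic protein of myelin, was at 2164 and 2213 CPM in KO, against 684 and 638 CPM in WT (3.31-fold). For each of the 16 both KO libraries lay above both WT libraries, as they did for 33.4% of all tested genes. Cldn11, the tight junction protein of myelin, was 2.55-fold higher, and Mal, a raft protein of the myelin membrane, 2.13-fold higher.

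Transcription factors moved in both directions. Myrf, the transcription factor that switches on myelin genes, was at 656 and 677 CPM in KO, against 294 and 269.8 CPM in WT (2.36-fold, adjusted p = 1.75e-13). Zeb2, a zinc-finger repressor needed for myelination, was at 632 and 603 CPM in KO, against 362 and 359.5 CPM in WT. The transcription factor list as a whole had 22 higher and 45 lower of 98 tested, median log2 fold change -0.31, with Myt1 2.33-fold lower and Meis2 2.30-fold lower. Prox1, a homeobox factor that the list of caudal interneurons holds and that oligodendrocyte lineage cells also express, was at 172 and 166 CPM in KO, against 76.9 and 65.1 CPM in WT. The caudal list had 3 members higher and 3 lower of 11, among them Sp8 (0.640 against 8.58 CPM) and Calb2 (2.75 against 12 CPM), both lower in KO. Foxp1, listed for striatal neurons, was 1.92-fold higher.

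Enzymes of myelin lipids and fatty acids also moved in both directions. Scd2, the desaturase that makes monounsaturated fatty acids, was at 5988 and 6097 CPM in KO, against 2923 and 2595 CPM in WT (2.19-fold). Elovl7, an elongase of very long chains, was at 129.5 and 128 CPM in KO, against 39.8 and 49.2 CPM in WT. Acsbg1, an acyl-CoA synthetase, was instead at 241 and 267 CPM in KO, against 532 and 574 CPM in WT, and Fads2, the delta-6 desaturase, was 1.99-fold lower. In the list of 49 genes 16 were higher and 18 lower, median log2 fold change -0.04, and both shares lie near those of abundant genes in general. In the sterol list 7 were higher and 12 lower of 34, and the lower ones were 7 without KO replicate 1 and 7 without WT replicate 2. Apoe, the lipid carrier secreted by astrocytes, was 1.65-fold lower, at 1140 and 1211 CPM in KO, against 1961 and 1917 CPM in WT, while the exporter Abcg1 was 1.62-fold higher.

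Among genes of iron handling the storage protein and the carrier were higher. Fth1, the heavy chain of ferritin, was at 1506 and 1531 CPM in KO, against 495 and 441 CPM in WT (3.24-fold). Trf, the iron carrier transferrin that oligodendrocytes secrete, was at 282 and 276 CPM in KO, against 124 and 123 CPM in WT and is also on the oligodendrocyte list. Both KO values exceeded both WT values by more than 2-fold. Of 23 genes of iron, copper and zinc, 3 were higher and 7 lower, the lower ones including the metal importer Slc39a14 (1.74-fold lower).

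Cytoskeletal and paranodal genes included large differences in both directions. Map7, a microtubule-associated protein, was at 512 and 527 CPM in KO, against 248 and 245 CPM in WT. Tppp, which polymerises tubulin in oligodendrocytes, was 1.8-fold higher, Stmn4 1.99-fold higher and Dpysl2 1.91-fold higher. Among 55 motor and tubulin genes 25 were higher and 15 lower, 45.5% and 27.3%. The septin, spectrin, ankyrin and paranode list had 12 higher and 15 lower of 34. Cntn2, an adhesion protein of the juxtaparanode, was at 1695 and 1792 CPM in KO, against 830.3 and 800.2 CPM in WT. Anln, a septin scaffold in myelin, was 2.14-fold higher, whereas Sptbn4, the spectrin of nodes and initial segments, was at 40.1 and 42.1 CPM in KO, against 130.4 and 122 CPM in WT, 3.07-fold lower. Ank2, the ankyrin of axons, was at 1714 and 1682 CPM in KO, against 1662 and 1693 CPM in WT and was not called (adjusted p = 0.809).

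Of 64 splicing and RNA-binding genes 25 were higher and 17 lower, 39.1% and 26.6%, near the shares of abundant genes. Qk, the Quaking protein that guides splicing and transport of myelin RNAs, was at 2047 and 1837 CPM in KO, against 1096 and 1044 CPM in WT. Mbnl2, a muscleblind splicing factor, was at 593 and 564 CPM in KO, against 328 and 298 CPM in WT. Rbfox3, the neuronal protein known as NeuN, was at 14.3 and 13.1 CPM in KO, against 42.6 and 39.0 CPM in WT, 2.97-fold lower. Elavl3, a Hu protein usually taken as neuronal, was 1.90-fold higher, at 329.9 and 349 CPM in KO, against 189 and 169.6 CPM in WT.

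In the list of endocytosis and endosomes 33 of 67 were higher (49.3%) and 10 lower (14.9%), median log2 fold change 0.24. Bin1, which bends membranes, was at 871 and 942 CPM in KO, against 508 and 501 CPM in WT, and Synj2 and Dnm3 were 1.85-fold and 1.88-fold higher. Dnm1, the neuronal dynamin, was at 58.8 and 64.7 CPM in KO, against 148 and 166 CPM in WT, 2.54-fold lower. Lysosomal genes had 13 higher and 5 lower of 47, and 7 higher with DESeq2. Lamp1, a protein of the lysosomal membrane, was 1.46-fold higher. Among chaperones Dnajb2 was 1.81-fold higher and Cryab, a small heat shock protein and oligodendrocyte marker, 1.81-fold higher. The chaperone list had 6 (18.2%) higher and 7 (21.2%) lower of 33, near the shares of all genes. Fewer were lower without KO replicate 1, without KO replicate 2 or without either WT library at 18 months.

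**Figure D2:**
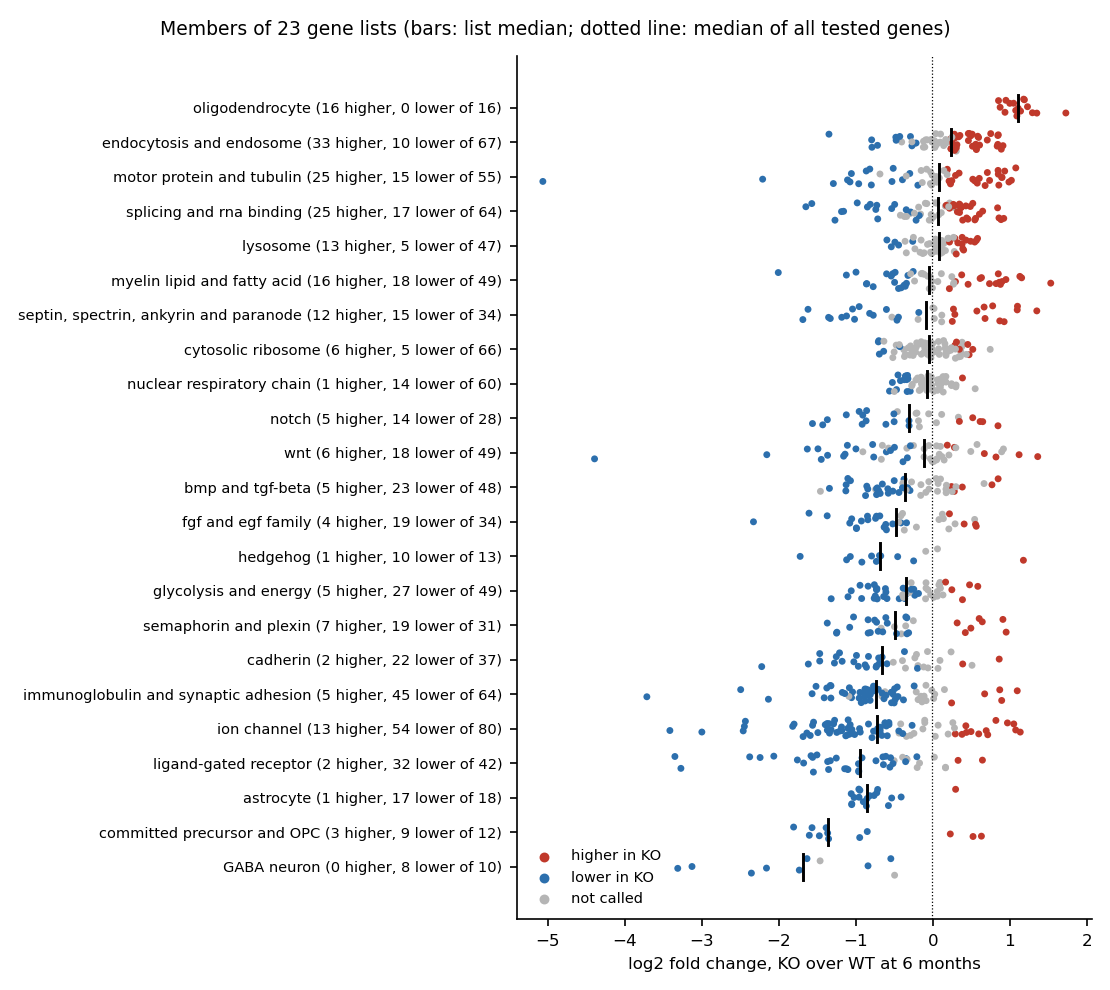
Log2 fold change of KO over WT at 6 months (x axis) for each tested member of 23 gene lists (rows), red where higher in KO, blue where lower, grey where not called, with the list median as a black bar. The oligodendrocyte members all lie to the right of 0, and most members of the astrocyte, adhesion, channel, receptor and GABA neuron lists lie to the left.

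Astrocyte and precursor genes were lower. Of 18 astrocyte markers 17 were lower and 1 higher, median log2 fold change -0.86, and none passed the 2-fold threshold. Slc1a3, the glutamate transporter GLAST, was at 1015 and 1019 CPM in KO, against 1938 and 2015 CPM in WT. Acsl6, an acyl-CoA synthetase, was 1.82-fold lower, and the 18 markers summed to 11320 and 11450 CPM in KO, against 18900 and 18920 CPM in WT. Precursor markers had 9 lower and 3 higher of 12, median -1.36, and 7 of the 9 passed the 2-fold threshold. Pdgfra, the growth factor receptor of precursors, was at 249 and 245 CPM in KO, against 735 and 731 CPM in WT, and Gpr17, a receptor of committed precursors, was 3.04-fold lower.

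In the Notch pathway, ligands on one cell activate receptors on the next, and the cleaved receptor switches on target genes. Of 28 tested Notch genes 14 were lower (50%) and 5 higher (17.9%), median log2 fold change -0.31. Lfng, the glycosyltransferase that tunes Notch receptors, was at 104 and 115 CPM in KO, against 295 and 294 CPM in WT (2.69-fold lower, adjusted p = 3.52e-14). Notch1 was 1.52-fold lower and Notch2 1.42-fold lower. Hes5, a target repressor, was at 9.28 and 8.24 CPM in KO, against 23.9 and 21.4 CPM in WT. Notch3, the receptor of mural cells, was 1.43-fold higher, and the pericyte and smooth muscle markers had 6 higher and 2 lower of 12, with 1 lower without KO replicate 1. Their sums were 2873 and 2971 CPM in KO, against 2760 and 2803 CPM in WT, and the part of mural cells in the Notch3 value was not tested.

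Of 34 FGF and EGF family genes 19 were lower (55.9%) and 4 higher. Fgfr3, a receptor of astrocytes, was at 456 and 481 CPM in KO, against 983 and 960.5 CPM in WT. Fgfr1 was 1.8-fold lower, and Etv4, a transcription factor induced by FGF signals, 2.11-fold lower. Among other growth factors and receptors 16 were lower and 10 higher of 45. Vegfa, the endothelial growth factor, was at 486 and 526 CPM in KO, against 940.4 and 929 CPM in WT, Mertk, a receptor for engulfment, was 1.79-fold lower and Igfbp2 3.08-fold lower. Ngfr, the low-affinity neurotrophin receptor, went the other way, at 23.6 and 23.9 CPM in KO, against 6.09 and 4.06 CPM in WT, 4.67-fold higher.

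Hedgehog genes were lower in 10 and higher in 1 of 13 cases, median log2 fold change -0.69. Gli3, a transcription factor of the pathway, was at 85.2 and 90.7 CPM in KO, against 148 and 144 CPM in WT, and Gas1, a co-receptor, 2.17-fold lower. Hhip, which binds the ligand and restrains the pathway, was the 1 higher member, at 144 and 129 CPM in KO, against 66.7 and 54.1 CPM in WT. BMP and TGF-beta genes were lower in 23 and higher in 5 of 48 cases, median -0.36. Id2, a target that blocks differentiation factors, was at 63.0 and 65.2 CPM in KO, against 114 and 120.4 CPM in WT, the antagonist Chrdl1 was 2.10-fold lower and the ligand Bmp7 2.19-fold lower. Smad7, an inhibitory Smad, was at 197 and 219 CPM in KO, against 113 and 117 CPM in WT.

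Wnt genes were lower in 18 and higher in 6 of 49 cases, median log2 fold change -0.11, and the higher ones were 3 without KO replicate 1. With all libraries the shares were 36.7% lower and 12.2% higher, against 19.6% and 19.2% of all genes. Lgr6, a receptor that potentiates Wnt signals, was at 28.9 and 27.6 CPM in KO, against 79.2 and 79.4 CPM in WT. Lgr5, its relative, was at 1.15 and 0.716 CPM in KO, against 21.7 and 18.0 CPM in WT, 21-fold lower. The ligand Wnt7a was 2.73-fold lower, and Daam1, an effector on the cytoskeleton, 1.77-fold higher.

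Glycolysis and energy genes had 27 lower (55.1%) and 5 higher of 49, median log2 fold change -0.35. Pfkp, the platelet-type phosphofructokinase, was at 213 and 211 CPM in KO, against 460.1 and 448 CPM in WT, Pfkm 1.79-fold lower, and the neuronal enolase Eno2 2.49-fold lower. Aldoc, the aldolase of astrocytes, was at 585 and 614 CPM in KO, against 1251 and 1243 CPM in WT. Genes of thyroid hormone, retinoids and steroids were lower in 12 and higher in 3 of 24. Slco1c1, a thyroid hormone transporter, was at 213 and 207 CPM in KO, against 446 and 463 CPM in WT, and Dio2, the deiodinase that activates the hormone, was 1.8-fold lower. Nr3c1, the glucocorticoid receptor, and Sgk1, a kinase it induces, were 1.43-fold and 1.46-fold higher. Clock genes were lower in 12 and higher in 3 of 24, with Per3 at 119.8 and 127 CPM in KO, against 214 and 218 CPM in WT, Per2 1.90-fold lower, and Clock itself 1.43-fold higher.

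Of 51 pumps and transporters 36 were lower (70.6%) and 11 higher. Slc1a4, a neutral amino acid transporter, was at 149 and 141 CPM in KO, against 301 and 326 CPM in WT, and Atp2b2, a plasma membrane calcium pump, was 2.21-fold lower. Slc24a2, a sodium, calcium and potassium exchanger, was higher, at 721 and 699 CPM in KO, against 289 and 306 CPM in WT.

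Genes of neuronal receptors, channels, adhesion molecules and signalling enzymes were mostly lower in KO. Of 42 ligand-gated and metabotropic transmitter receptors 32 were lower (76.2%) and 2 higher, median log2 fold change -0.94, with 11 past the 2-fold threshold. Grin1, the obligate NMDA receptor subunit, was at 19.6 and 24.5 CPM in KO, against 100.2 and 108 CPM in WT. Grin2b was 2.38-fold lower, and Grin2c, a subunit that astrocytes also express, was 2.21-fold lower, at 382 and 429 CPM in KO, against 874 and 918 CPM in WT. Grm4, a presynaptic glutamate receptor, was at 4.24 and 4.78 CPM in KO, against 42.5 and 49.4 CPM in WT (10.2-fold lower). Gabra5, a GABA-A receptor subunit, was 9.64-fold lower, at 1.72 and 0.716 CPM in KO, against 11.4 and 12.5 CPM in WT.

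Ion channels were lower in 54 (67.5%) and higher in 13 of 80 cases, median log2 fold change -0.73. The calcium channels Cacna1c, at 93.0 and 91.7 CPM in KO, against 223 and 224 CPM in WT, and Cacna1e, 2.59-fold lower, fell with the T-type channel Cacna1g (3.48-fold lower). The potassium channels Kcnj4, Kcnf1 and Kcnb2 were 9.28-fold, 8.46-fold and 7.98-fold lower. Kcna1, a potassium channel of axons, rose instead, at 260.4 and 256 CPM in KO, against 125 and 124 CPM in WT. It is also on the parvalbumin list, which had 3 members higher and 5 lower of 13. Each leave-out of KO replicate 1, WT replicate 1 or WT replicate 2 left 1 higher, and 3 were lower without KO replicate 2. Kcnc1, the fast Kv3 channel, was at 20.4 and 21.5 CPM in KO, against 65.7 and 57.8 CPM in WT.

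Second-messenger genes were lower in 49 (59.8%) and higher in 14 of 82 cases. Camk2b, a calcium-dependent kinase of synapses, was at 40.0 and 47.0 CPM in KO, against 171 and 165 CPM in WT. Ryr2, a channel of internal calcium stores, was 2.80-fold lower, and the kinase Ptk2b 3.45-fold lower. Plcl1, a phospholipase-like protein, was 1.96-fold higher.

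Of 64 immunoglobulin and synaptic adhesion genes 45 were lower (70.3%) and 5 higher, median log2 fold change -0.74. Nrxn3, a presynaptic neurexin, was at 40.4 and 41.5 CPM in KO, against 187 and 172 CPM in WT. Tenm3, a teneurin, was 2.96-fold lower and Dscam 2.66-fold lower. Cadherins were lower in 22 and higher in 2 of 37, with Pcdh15 1.99-fold lower and Dchs1 2.26-fold lower. Ephrin, slit and netrin genes were lower in 21 and higher in 7 of 40. Epha5, an ephrin receptor, was 3.22-fold lower, while the ephrin Efnb3, at 651 and 669 CPM in KO, against 264 and 267 CPM in WT, and the netrin receptor Unc5b, 2.33-fold higher, were higher.

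Semaphorins and plexins were lower in 19 (61.3%) and higher in 7 (22.6%) of 31 cases, against 19.6% and 19.2% of all genes. Sema6a was at 234 and 241 CPM in KO, against 129.7 and 116 CPM in WT and the plexin Plxnb3 1.56-fold higher, both higher in KO, against Sema4b (2.11-fold lower) and Sema5b (2.58-fold lower). Matrix and integrin genes were lower in 29 (50.9%) and higher in 11 (19.3%) of 57. Itgb4, an integrin of basement membranes, was at 162 and 177 CPM in KO, against 59.6 and 60.9 CPM in WT, and the collagen Col6a1 was 4.59-fold lower. Of 42 ADAMTS and metalloprotease genes 19 were lower (45.2%) and 13 higher (31%). Adamts4, which cleaves proteoglycans, was 2.21-fold higher, at 278 and 291 CPM in KO, against 132 and 125 CPM in WT, and Adamtsl4 2.46-fold higher. Adamts19 had 3 and 0 reads in KO, against 68 and 93 reads in WT (ratio 75.1, 95% interval 25.2 to 368, lower in KO).

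Of 24 peptide and hormone genes 13 were lower and 2 higher. Scg2, a granin of dense-core vesicles, was 5.65-fold lower, and Npy, a neuropeptide that the somatostatin list holds, 3.56-fold lower. Of 49 peptide, amine and lipid receptors 25 were lower and 9 higher, 10 of the lower past the 2-fold threshold. Crhr1, the receptor for corticotropin-releasing hormone, was 5.80-fold lower and Vipr2 5.70-fold lower. S1pr1 and S1pr5, receptors for the same lipid, differed in direction. S1pr1, of astrocytes and endothelium, was at 438 and 436 CPM in KO, against 872 and 861 CPM in WT, and S1pr5, of oligodendrocytes, at 181 and 188 CPM in KO, against 74.2 and 63.5 CPM in WT.

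Most markers shared by GABA neurons were lower, while the lists of parvalbumin and caudal interneurons, given above, had members in both directions. Gad1 was at 14.4 and 15 CPM in KO, against 125 and 132 CPM in WT and Gad2 at 8.59 and 6.92 CPM in KO, against 22.7 and 25.5 CPM in WT. Dlx1, a transcription factor of inhibitory neurons, was 3.32-fold lower. Of 10 tested GABA neuron markers 8 were lower and 0 higher, and of 15 olfactory bulb and neuroblast genes 12 were lower and 1 higher, median log2 fold change -0.89. Th, the dopamine-synthesising enzyme of periglomerular cells, had 1 and 2 reads in KO, against 35 and 33 reads in WT (ratio 31.7, 95% interval 10.4 to 158, lower in KO). Dcx, a protein of migrating neuroblasts, was at 10.5 and 9.91 CPM in KO, against 27.0 and 23.1 CPM in WT. Somatostatin-list genes were lower in 4 and higher in 0 of 6, with Nos1 at 3.55 and 4.42 CPM in KO, against 27.0 and 26 CPM in WT.

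Several genes had few reads in KO and were well read in WT. Cytl1, a secreted cytokine-like protein, had 0 and 1 reads in KO, against 84 and 93 reads in WT (ratio 248, 95% interval 43.9 to 9833, lower in KO). Dnah11, an axonemal dynein, was at 1.26 and 1.31 CPM in KO, against 38.9 and 39.0 CPM in WT (30.0-fold lower). The actin-binding Ablim3 was 15.4-fold lower, the synaptotagmins Syt10 and Syt6 14.1-fold and 10.4-fold lower, Cntnap4 13.1-fold lower, and Cpne4 11.2-fold lower. Myo16, an unconventional myosin, was at 11.9 and 13.7 CPM in KO, against 114 and 107 CPM in WT, 8.64-fold lower. Among 62 tested genes of cilia, Dnah11 included, 8 were higher (12.9%) and 11 lower (17.7%). Both shares lie below the 19.2% and 19.6% of all genes, and fewer were lower without WT replicate 2. Of the 2906 lower genes with at least 10 CPM in WT at 6 months, 61 had there at least 4 times the mean of every other group of the series. Excitatory neuron genes were lower in 6 and higher in 0 of 16 (2 higher without WT replicate 1), with Bcl11b at 6.41 and 6.69 CPM in KO, against 28.8 and 26.6 CPM in WT.

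**Figure D3:**
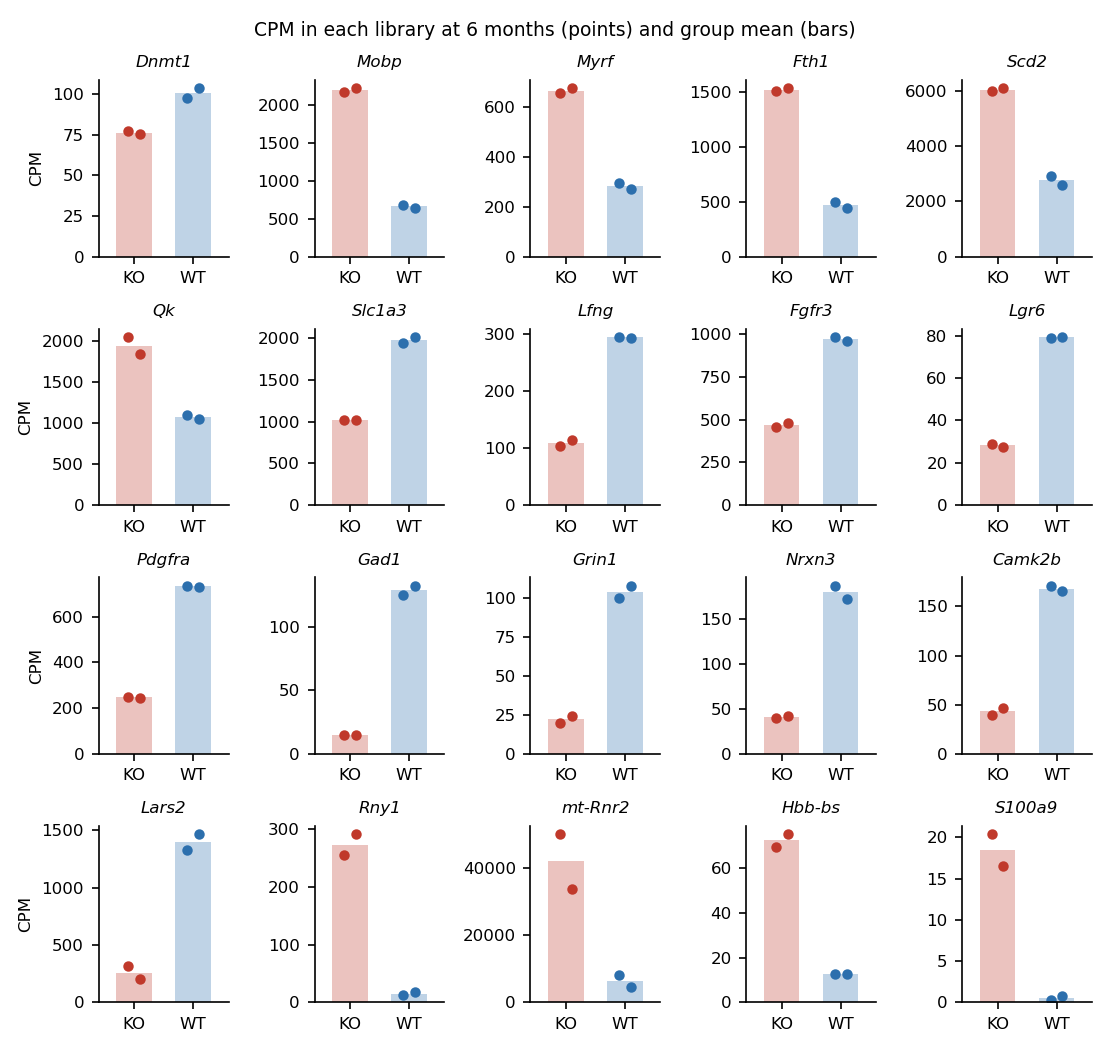
CPM (y axes, linear from 0) of 20 named genes in each KO library (red points) and WT library (blue points) at 6 months, with the group mean as a bar. The drawn genes are named genes, taken largely for small p or large fold, so the separation of the groups follows from that choice. The KO pair lies above for Mobp, Myrf, Fth1, Scd2, Qk, Rny1, mt-Rnr2, Hbb-bs and S100a9 and below for the others.

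Transcripts of blood cells rose from a low level. Red blood cell genes included 7 (87.5%) higher and 0 lower of 8, against 19.2% and 19.6% of all genes. Hbb-bs, a beta globin, was at 69.5 and 75 CPM in KO, against 12.5 and 12.8 CPM in WT. Globin genes have near-identical copies that can share reads, so single members are uncertain. Of 15 listed neutrophil and leukocyte genes 7 passed the filter on low counts, and these summed to 62.8 and 60.2 CPM in KO, against 1.15 and 2.11 CPM in WT. They passed through the KO libraries, where they were high, so their direction follows from the filter. S100a9, a calprotectin subunit of neutrophils, was at 20.4 and 16.5 CPM in KO, against 0.329 and 0.812 CPM in WT. Ltf, lactoferrin, had 56 and 74 reads in KO, against 0 and 0 reads in WT, which is a KO level at least 31.0-fold that of WT, with the WT pair set to a floor of 3 reads in total. Lymphocyte genes were near 0, with Cd3e at 1 and 0 reads in KO, against 2 and 0 in WT.

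Prl, which encodes the pituitary hormone prolactin, had 1910 and 1843 reads in KO, against 0 and 0 reads in WT, or at least 894-fold the WT level by that floor. Pomc, another pituitary precursor, was at 3.78 and 5.01 CPM in KO, against 1.15 and 1.30 CPM in WT, 3.55-fold higher. The pituitary hormones Gh, Cga, Lhb and Fshb had 0 reads in all 4 libraries, and Pou1f1, the factor that drives Prl in pituitary cells, had 6 and 7 reads in KO, against 0 and 0 in WT. The granule genes Chga and Pcsk2 were lower, 2.43-fold and 1.59-fold. Of the 5 tested members of the pituitary list 3 were higher, namely Prl, Pomc and the thyrotropin subunit Tshb, and 2 lower. These shares were 60% and 40%, against 19.2% and 19.6% of all genes, but only 5 of the 10 listed genes passed the filter on low counts. Prl, with 0 reads in both WT libraries, could not pass through them, so its direction follows in part from the filter. Together the 5 members summed to 257 and 265 CPM in KO, against 52.3 and 57.5 CPM in WT. Most of the KO sums came from Prl, which added nothing to the WT sums, so they do not show a rise of the other members.

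The tested mitochondrial transcripts rose together. All 9 tested of the 15 mitochondrially encoded genes of the list were higher, and all 13 tested genes of the mitochondrial chromosome. The listed mt-Co2, mt-Co3, mt-Atp6, mt-Atp8, mt-Nd3 and mt-Nd4l had 0 reads in all 8 libraries. Why these genes had no counts was not tested, so the mitochondrial values cover only part of the chromosome. The rRNA mt-Rnr2 was at 50050 and 33890 CPM in KO, against 8039 and 4623 CPM in WT. The KO libraries differed from each other, and both lay above both WT libraries. The respiratory chain subunits mt-Co1 and mt-Nd4 were 1.70-fold and 2.62-fold higher. Nuclear genes of the same chain did not rise with them: of 60, 1 was higher (2 without WT replicate 1) and 14 lower, or 7 lower without KO replicate 1 and 7 without WT replicate 2. Cyc1, of complex III, was 1.48-fold lower, and Sdha, of complex II, 1.31-fold higher.

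Small and nuclear RNAs differed in both directions. The Y RNAs Rny1, at 255 and 291 CPM in KO, against 12.3 and 17.7 CPM in WT, and Rny3, 12.2-fold higher, rose, and both have many copies that can share reads. Neat1, the scaffold of paraspeckles, was at 1336 and 1266 CPM in KO, against 588 and 549 CPM in WT, and Malat1, a nuclear speckle RNA, at 36760 and 33800 CPM in KO, against 26340 and 23540 CPM in WT. Meg3, a maternally expressed imprinted RNA, was 2.35-fold lower. Gm26917, an annotated gene known to collect rRNA-like reads, took 4.19% and 4.98% of reads in KO, against 9.97% and 9.29% in WT. Lars2, the mitochondrial leucyl-tRNA synthetase, was at 315 and 202 CPM in KO, against 1333 and 1466 CPM in WT (5.40-fold lower) and moved with Gm26917 and CT010467.1 (3.87-fold lower). The part of rRNA-like reads in the Lars2 value was not tested.

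Classes of annotated genes had unequal shares of lower calls, set beside 19.2% higher and 19.6% lower over all genes. Entries of the class TEC, loci that await experimental evidence, included 311 (21.6%) higher and 54 (3.74%) lower of 1443, median log2 fold change 0.36. Sense intronic RNAs included 40 (22.3%) higher and 6 (3.35%) lower of 179. Of 28 small nuclear RNAs 10 were higher (35.7%) and 0 lower. Protein-coding genes included 2770 (20.1%) higher and 3274 (23.8%) lower of 13756. Gm28322 was 6.99-fold higher, at 11.7 and 11.3 CPM in KO, against 2.63 and 0.650 CPM in WT, and Gm49375 6.19-fold higher. Gm27032 was 6.99-fold lower, at 1.15 and 1.79 CPM in KO, against 10.0 and 10.6 CPM in WT, and C130073E24Rik 3.86-fold lower.

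Further lists are set beside the shares of all genes, 19.2% higher and 19.6% lower, and some lie near them and others do not. Calls depend on level, and the fifth of genes with the highest CPM had 38% higher and 29.7% lower. The histone, chromatin and reactive glia lists have a high summed CPM, so this second pair is the closer comparison for them. Cytosolic ribosomal protein genes included 6 (9.09%) higher and 5 (7.58%) lower of 66, median log2 fold change -0.05. The lower ones were 2 without KO replicate 1 and 3 without KO replicate 2 or WT replicate 2. Cell cycle genes included 7 (19.4%) higher and 5 (13.9%) lower of 36, with the inhibitor Cdkn1b 1.43-fold higher and Ccnd1 1.64-fold lower. DNA damage and p53 genes included 8 (19.5%) higher and 6 (14.6%) lower of 41, including the p53 target Phlda3, 1.58-fold higher. Histone methylation genes included 6 (17.1%) higher and 10 (28.6%) lower of 35, with Ehmt2, the G9a methyltransferase, 1.42-fold lower. The lower count was 6 without KO replicate 1 or WT replicate 1 and 5 without KO replicate 2. Histone acetylation genes included 6 (20.7%) higher and 10 (34.5%) lower of 29, and fewer were lower without KO replicate 1 or WT replicate 2. The deacetylases Hdac4 and Hdac11 were 1.86-fold lower and 1.66-fold higher.

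Chromatin remodelling genes included 10 (33.3%) higher and 5 (16.7%) lower of 30. Fewer were higher without KO replicate 1 or WT replicate 2, and fewer were lower without KO replicate 2. Chd3, a remodelling ATPase, was 2.07-fold lower, at 82.2 and 81.8 CPM in KO, against 172 and 168 CPM in WT. Imprinted genes, whose allelic expression rests on DNA methylation, included 14 (35.9%) higher and 9 (23.1%) lower of 39, median log2 fold change 0.03. Inpp5f was 1.68-fold higher, Nap1l5 1.72-fold higher and Ddc 2.07-fold higher. The list mixed maternally and paternally expressed genes, and single alleles were not measured.

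Interferon and antigen presentation genes included 0 higher and 7 (22.6%) lower of 31, with H2-K1 1.49-fold lower. The lower count was 3 without KO replicate 1 and 4 without KO replicate 2. Microglial genes included 4 (23.5%) higher and 0 lower of 17, with fewer higher without KO replicate 1. P2ry12, a purine receptor, was at 16.3 and 16.8 CPM in KO, against 8.56 and 7.96 CPM in WT. Genes of complement and reactive glia included 8 (33.3%) higher and 8 (33.3%) lower of 24, and fewer were lower without KO replicate 1 or WT replicate 1. Apod, a lipid carrier, was at 1356 and 1342 CPM in KO, against 485 and 462 CPM in WT, and C4b, a complement component, at 81.7 and 90.5 CPM in KO, against 39.2 and 40.1 CPM in WT. Il33, an alarmin of glia, was 2.08-fold higher. Unfolded protein and oxidative stress genes were lower in 15 (39.5%) and higher in 5 (13.2%) of 38. The chaperone Hspa5 was 1.54-fold lower and the peroxidase Prdx6 1.76-fold lower. The shares of immediate early genes were 39.3% lower and 10.7% higher. Immediate early genes were lower in 11 and higher in 3 of 28, but 4 without KO replicate 1 and 5 without WT replicate 1, with Junb 1.70-fold lower.

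Y-linked genes were read in every library. The Y-linked Ddx3y was at 104 and 87.0 CPM in KO, against 76.0 and 75.2 CPM in WT (adjusted p = 0.0054, and 0.159 without KO replicate 1). Xist, the RNA of the inactive X chromosome, had 2 and 8 reads in KO, against 3 and 5 in WT. Uty was 1.26-fold higher (adjusted p = 0.00928, and 0.11 without WT replicate 1). The X-linked Ddx3x and Kdm6a were 1.48-fold and 1.43-fold higher.

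Some abundant genes differed little. Ncam1, an adhesion molecule, was at 674 and 686 CPM in KO, against 669 and 667 CPM in WT, with a log2 fold change of 0.03 and a 95% interval of -0.08 to 0.14. Glul, the glutamine synthetase of astrocytes, was at 3367 and 3358 CPM in KO, against 3155 and 3165 CPM in WT, with 0.09 and -0.00 to 0.18. Glul was called higher with upper quartile scaling (adjusted p = 0.025) and without a filter on low counts (0.00961).

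The region around Dnmt1 was compared with the rest, since the floxed allele came from another strain. Within 2 Mb of Dnmt1 on chromosome 9, 11 genes were higher and 15 lower of 71 tested (36.6%), against 38.8% of all genes. Within 20 Mb the share was 36.1%, and over the rest of the chromosome 37.4%. The called genes within 2 Mb included S1pr5, Anln and Elavl3, higher, and Icam5, a neuronal adhesion protein, 5.31-fold lower. Across the autosomes and the X chromosome the share called higher lay between 14.8% on chromosome 17 and 25.3% on chromosome 3.

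**Figure D4:**
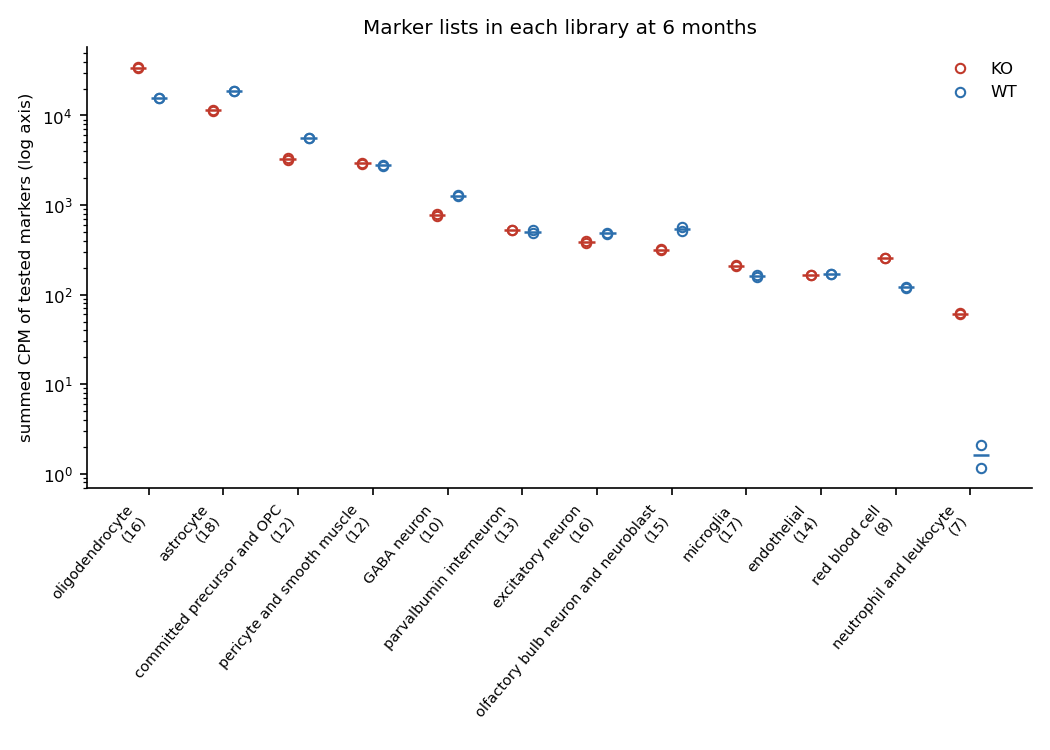
Summed CPM of the tested members of 12 marker lists (x axis, number of tested members in brackets) in each KO library (red) and WT library (blue) at 6 months, on a log axis, with the group mean as a line. Oligodendrocyte, red blood cell and neutrophil sums were higher in KO, astrocyte, precursor, GABA neuron and olfactory bulb sums were lower, and parvalbumin and endothelial sums lay close together. A sum is led by its most abundant members. The parvalbumin list had 3 members higher and 5 lower of 13, with a median log2 fold change of -0.56.

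The same genotype contrast at 18 months, on other libraries, was set beside these results. The genotype by age interaction, taken as the 18-month minus the 6-month log2 fold change, was called for 7126 genes (39.1%). At 18 months 14.7% of all genes were higher and 17.4% lower. Of the 7067 genes called at 6 months, 5131 (72.6%) had a called interaction. The interaction contains the 6-month fold change by which these genes were chosen. A share above 39.1% and a sign opposite to the 6-month call thus follow in part from that choice. Of the 3491 higher at 6 months, 1438 (41.2%) were lower at 18 months, 45.4% of the genes lower there, and 293 (8.39%) were higher, 10.9% of those higher there. Of the 3576 lower at 6 months, 1161 (32.5%) were higher at 18 months, 43.3% of the genes higher there, and 498 (13.9%) were lower, 15.7% of those lower there.

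Several glial genes differed in opposite directions at the 2 ages. Mobp had a log2 fold change of 1.73 at 6 months and -0.54 at 18 months (interaction -2.26, adjusted p = 1.45e-16). At 18 months it averaged 1646 ± 32.4 CPM in KO and 2385 ± 31.3 CPM in WT (SD, n = 2 each). Lfng had -1.43 at 6 months and 1.33 at 18 months (interaction 2.76, adjusted p = 3.02e-16), and Slc1a3 -0.96 and 1.01. The precursor receptor Pdgfra was lower at both ages, -1.57 and -0.68, with a called interaction of 0.89. Lars2 (-2.43 and -2.01) and Gm26917 (-1.02 and -0.86) were lower at both ages, and their interactions were not called (adjusted p = 0.378 and 0.152). Gad1 was lower at both ages with a called interaction of 2.14, and Gad2 was lower at both with none called (0.37, adjusted p = 0.485). The Dnmt1 difference was -0.10 log2 units at 18 months and was not called there.

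**Figure D5:**
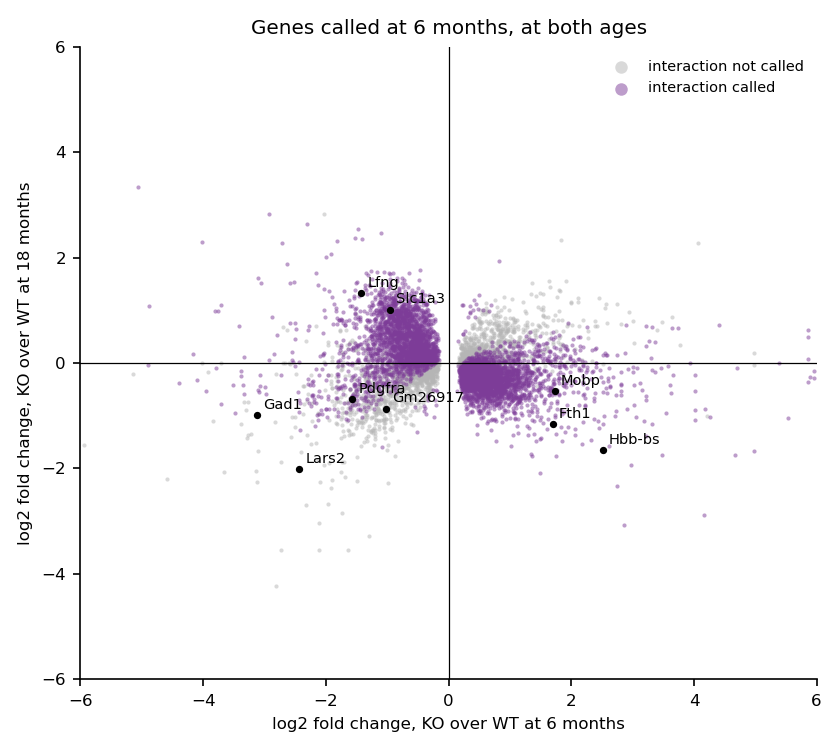
Log2 fold change of KO over WT at 18 months (y axis) against that at 6 months (x axis) for 7045 of the 7067 genes called at 6 months, purple where the interaction of genotype and age was called; 22 genes beyond 6 units are not drawn. Most purple points lie in the upper left and lower right, where the direction differs between the ages, and Lars2 and Gad1 lie in the lower left, lower in KO at both. The interaction contains the 6-month value by which the genes were chosen, which favours the upper left and lower right.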

How the data were processed

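RNA of sorted cortical cells was sequenced as total RNA in 4 groups of 2 technical libraries, of which the groups at 6 months are compared. The 4 libraries hold 6008175 to 8973571 reads each. The authors deposited raw read counts per gene, whose unit was checked on the values. Per the submitters' processing notes CASAVA 1.8.2, STAR 2.5.2a, featureCounts 1.5.0-p1 and build mm10 were used, while the annotation release, strand setting and how multiply mapped reads were treated were not given in the sources used here, so overlapping, antisense and near-identical genes cannot be separated. Of 55573 gene IDs, 55480 (99.8%) matched GENCODE M21, which gave symbols, classes and positions.

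All 8 libraries were fitted in 1 model of 4 groups with edgeR 4.0.16 in R 4.3.3 (TMM scaling, low counts removed by filterByExpr at min.count 10, quasi-likelihood F test, Benjamini-Hochberg adjustment over 18205 genes, threshold 0.05), and the test against 2-fold used glmTreat on the same fit. CPM values use the TMM-scaled library sizes. Folds against a group with 0 reads used a floor of 3 reads over the group, and those against 1 to 3 reads an exact binomial 95% interval, both covering counting error only. DESeq2 1.42.0, 2 other scalings, other filters, a replicate block, the libraries at 6 months alone and the omission of each library were alternatives. Another was the removal of mitochondrial genes and Gm26917, which kept Lars2 and CT010467.1. The code was tested on simulated data. Promoter sequences are from RefSeq on GRCm38.p6.

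The 68 gene lists and the genes named were chosen with earlier results of these data known. The rule for named genes took the methylation and sex-linked genes, the 25 genes with the largest folds each way at 10 CPM or more, 4 members with the smallest p in each list, leading non-coding genes, the most abundant genes, genes with narrow intervals, genes with the smallest interaction p, genes called in the same direction at both ages and called genes within 2 Mb of Dnmt1. Untested markers with few reads (Lhx6, Cd3e, Gh, Cga, Lhb, Fshb, Pou1f1) were named after their values were seen. So were the tested Tshb and the listed mitochondrial genes without reads. Some genes that the rule takes are not reported here.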

Additional observations from a re-analysis of the deposited data

Results flagged for a closer look

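The difference between KO and WT changed between 6 and 18 months for 7126 genes by the edgeR test of the interaction. The interaction is the log2 fold change at 18 months minus that at 6 months, and DESeq2 called 5285 genes. With technical libraries alone, genotype and age cannot be told apart from the pools of cells. Among named genes lower in KO at 6 months, the interaction was 2.27 for Trim9, 2.76 for Lfng, 2.88 for AC149090.1, 2.32 for Fgfr3, 1.97 for Slc1a3, 2.14 for Gad1 and 0.30 for Dnmt1. Among those higher at 6 months it was -2.54 for Apod, -2.26 for Mobp, -2.85 for Fth1, -1.94 for Mal and -1.81 for Mbp. Trim9, a ubiquitin ligase, was at 319 and 324 CPM in KO, against 605 and 589.8 CPM in WT at 6 months. AC149090.1, an unnamed annotated gene, was at 43.3 and 46.3 CPM in KO, against 159 and 161 CPM in WT. Groups of 2 libraries are too small for a test of outlying libraries.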

How the results depend on the processing

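Over 16 alternatives, 2576 to 3909 genes were higher and 2576 to 3739 lower in KO at 6 months, 71.3% to 99.8% of the main calls passed in the same direction, and 0 passed in the opposite one. The share higher among called genes was 48.7% to 54.7%, and the median log2 fold change moved by -0.004 to 0.045. Leaving out 1 library gave 2576 to 3666 higher and 2577 to 3480 lower, 97 to 178 higher and 151 to 262 lower by more than 2-fold, and 5957 to 6871 interactions. With DESeq2 the counts past 2-fold were 50 higher and 103 lower; the cause was not tested. Same-numbered libraries of different groups deviated with correlations of 0.00283 to 0.0911 in 6 pairs of groups, so the numbers were not taken to pair them. With the replicate block 3682 genes were higher and 3739 lower, 186 and 286 past 2-fold, and 7494 interactions were called. With 2 technical libraries a group, differences between animals could not be measured, and genes with few reads had little power. Where 1 library is left out, the lone library of its group is assumed to vary like the other groups.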
